A study of Mus musculus with 2 samples.

Results

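CTCF sites in the introns of very long genes were described in embryonic mouse lung. Of the 54943 sites on chromosomes 1 to 19 and X, 4041 were kept, which is 7.35% (95% Wilson interval 7.14 to 7.58). A site was the summit of a peak in the optimal list, the authors' reproducibility-thresholded list. It was kept where the summit lay inside the body of a protein-coding gene longer than 300 kb in GENCODE release M21, outside every exon, and more than 5 kb from the transcription start site (TSS) of every gene. No measured value entered that choice. There were 567 such genes, and 536 of them held at least 1 of these intronic sites.

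CTCF is a zinc finger protein that binds a long, directional DNA motif. The cohesin complex is thought to extrude chromatin loops until it meets CTCF bound in the blocking orientation, so loop anchors often carry motifs that point toward each other. Many of the longest mammalian genes encode adhesion molecules, channels and receptors of neurons, and their length lies mostly in introns that RNA polymerase takes hours to cross.

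The study mapped CTCF by ChIP-seq, in which DNA bound by a protein is pulled down with an antibody and sequenced, in tissue of 1 kind, with no second condition. The labels give the strain as B6NCrl and name no other genotype or treatment. The tissue was lung at embryonic day 14.5, with male and female embryos pooled and the lungs of several dissections pulverised together, so all lung cell types are mixed. The 2 samples form 1 group, labelled biological replicates 1 and 2, but their labels also point to a single biosample and a single donor record, so their spread may be no more than technical. The deposited peak lists hold no read counts, so the depth behind each value is unknown, and they hold no expression, so the tissue label could not be checked against marker genes.

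The motif learned from strong sites outside these genes has the consensus tggccaccagggggcactag, read in the direction called forward here. The strongest of the 4041 sites are shown first because they display what a long-gene site with high signal looks like. Each line gives the motif in capitals with 10 bases of flank on each side, read along the motif, and the coordinates are those of the capitals in mm10 (GRCm38.p6), 1-based.
Iqsec1 site 1 (chr6:90737610-90737629, minus strand): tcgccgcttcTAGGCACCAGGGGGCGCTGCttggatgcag
Palld (chr8:61540008-61540027, plus strand): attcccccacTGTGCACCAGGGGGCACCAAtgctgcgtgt
Gse1 (chr8:120319693-120319712, plus strand): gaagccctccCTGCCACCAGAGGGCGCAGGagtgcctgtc
Gm20388 site 1 (chr8:122259539-122259558, minus strand): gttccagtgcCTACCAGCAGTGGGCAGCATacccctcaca
Iqsec1 site 2 (chr6:90728841-90728860, minus strand): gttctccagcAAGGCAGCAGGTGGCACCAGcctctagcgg
Rad51b (chr12:79612861-79612880, plus strand): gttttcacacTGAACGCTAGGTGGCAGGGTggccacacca
Lsamp (chr16:42165118-42165137, minus strand): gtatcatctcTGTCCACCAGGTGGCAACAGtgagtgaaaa
Ksr2 (chr5:117505337-117505356, plus strand): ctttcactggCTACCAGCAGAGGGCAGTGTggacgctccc
Gm20388 site 2 (chr8:120796449-120796468, minus strand): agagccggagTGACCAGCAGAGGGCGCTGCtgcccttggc
Ttc28 (chr5:111269858-111269877, minus strand): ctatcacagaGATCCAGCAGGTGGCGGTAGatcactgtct

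All 10 of these strongest sites carried the motif. It was common at strong sites, at 87.5% of the 558 long-gene sites among the strongest 10000 optimal peaks. Iqsec1 encodes an exchange factor for Arf GTPases, Palld the actin scaffold palladin, Rad51b a recombination protein, Lsamp a neuronal membrane adhesion protein and Ksr2 a scaffold of Ras signalling. Gm20388 is a predicted gene whose annotated body runs over its neighbours, Gse1 among them.

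Dystrophin, encoded by Dmd, links the cytoskeleton of muscle cells to the extracellular matrix and is a textbook case of a giant gene. Its 7 sites are shown because every one carried the motif, which was so for 62.9% of the 4041 sites and 61.7% of all sites in the genome. They are numbered along the gene from its TSS.
Dmd site 1 (chrX:83740729-83740748, minus strand): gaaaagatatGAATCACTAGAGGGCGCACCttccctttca
Dmd site 2 (chrX:83787596-83787615, minus strand): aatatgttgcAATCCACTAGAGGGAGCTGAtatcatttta
Dmd site 3 (chrX:83867694-83867713, minus strand): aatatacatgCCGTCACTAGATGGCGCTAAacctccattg
Dmd site 4 (chrX:84001471-84001490, plus strand): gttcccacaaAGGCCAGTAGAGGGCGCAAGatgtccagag
Dmd site 5 (chrX:84454677-84454696, plus strand): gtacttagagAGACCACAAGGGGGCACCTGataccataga
Dmd site 6 (chrX:84967717-84967736, minus strand): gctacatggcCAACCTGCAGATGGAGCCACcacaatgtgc
Dmd site 7 (chrX:85171456-85171475, plus strand): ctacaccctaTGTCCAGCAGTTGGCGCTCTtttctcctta

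The lines below mark the extremes. The Gm20388 line is the strongest site without a motif call, the Agap1 line the strongest site with a motif in soft-masked (repeat) sequence, and the Gpc5 line the weakest site with a motif. The Cntnap2 pair encloses the widest gap between neighbouring sites. Agap1 and Gpc5 were named after their values were seen. For the lines without a motif, the 61 bases centred on the summit are given on the plus strand.
Gm20388 site 3, no motif (chr8:123361500-123361560, plus strand): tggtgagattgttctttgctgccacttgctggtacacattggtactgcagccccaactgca
Agap1 (chr1:89646813-89646832, plus strand): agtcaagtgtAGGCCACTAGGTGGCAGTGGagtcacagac
Gpc5 (chr14:115149020-115149039, plus strand): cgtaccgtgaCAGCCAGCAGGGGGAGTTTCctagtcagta
Cntnap2 site 1, no motif (chr6:45804570-45804630, plus strand): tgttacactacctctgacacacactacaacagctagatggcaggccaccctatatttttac
Cntnap2 site 2 (chr6:46866507-46866526, plus strand): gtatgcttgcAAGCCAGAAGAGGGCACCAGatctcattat

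Intronic sites were sparse in very long genes. There were 13.8 sites per Mb of eligible intron (95% Poisson interval 13.3 to 14.2), over 293.7 Mb. The introns of shorter protein-coding genes, under the same rule, held 27.2 per Mb (26.8 to 27.7, 13407 sites). The density in the long genes was thus 0.506 times that in the shorter ones (95% interval 0.488 to 0.524). It was close to that of intergenic sequence, at 13.3 per Mb (13.1 to 13.5, 15316 sites), with a ratio of 1.03 (0.999 to 1.07). These intervals and those that follow cover counting error only and treat sites as independent, although sites of 1 gene share that gene and its base composition.

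The decline with gene length did not begin at 300 kb. Genes of up to 50 kb held 33.8 sites per Mb, and those of 200 to 300 kb, just outside the rule, held 22.2 (21.3 to 23.3). Genes of 300 to 500 kb held 16.7 (16.0 to 17.5), those of 500 kb to 1 Mb held 12.6 (11.9 to 13.3), and those over 1 Mb held 10.96 (10.24 to 11.7). The GC content of the intronic sequence fell alongside, from 44.2% in the shortest class to 39.6% in the longest.

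GC content moved strongly with the density. Across the 567 long genes, Spearman's rho between the GC content of a gene's eligible intron and its site density was 0.78, and between gene length and density it was -0.24. These are descriptions across genes that share libraries and, in part, neighbourhoods. To set like against like, the sequence was divided by the GC content of 20 kb windows. In windows of 36 to 38% GC, long genes held 3.65 sites per Mb (3.15 to 4.20), shorter genes 8.80 (7.82 to 9.86) and intergenic sequence 2.59 (2.38 to 2.81). In windows of 46% GC or more, the same classes held 42.5 (39.99 to 45.1), 48.4 (47.2 to 49.6) and 51.4 (50.1 to 52.8). The ratio of long to shorter genes was 0.415 (0.344 to 0.499) in the 36 to 38% windows and 0.878 (0.822 to 0.936) in the most GC-rich ones, and its interval lay below 1 in all 7 GC classes. Against intergenic sequence, the interval for long genes lay above in the classes from 36 to 42% and below in those of 44% or more.

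**Figure D1:**
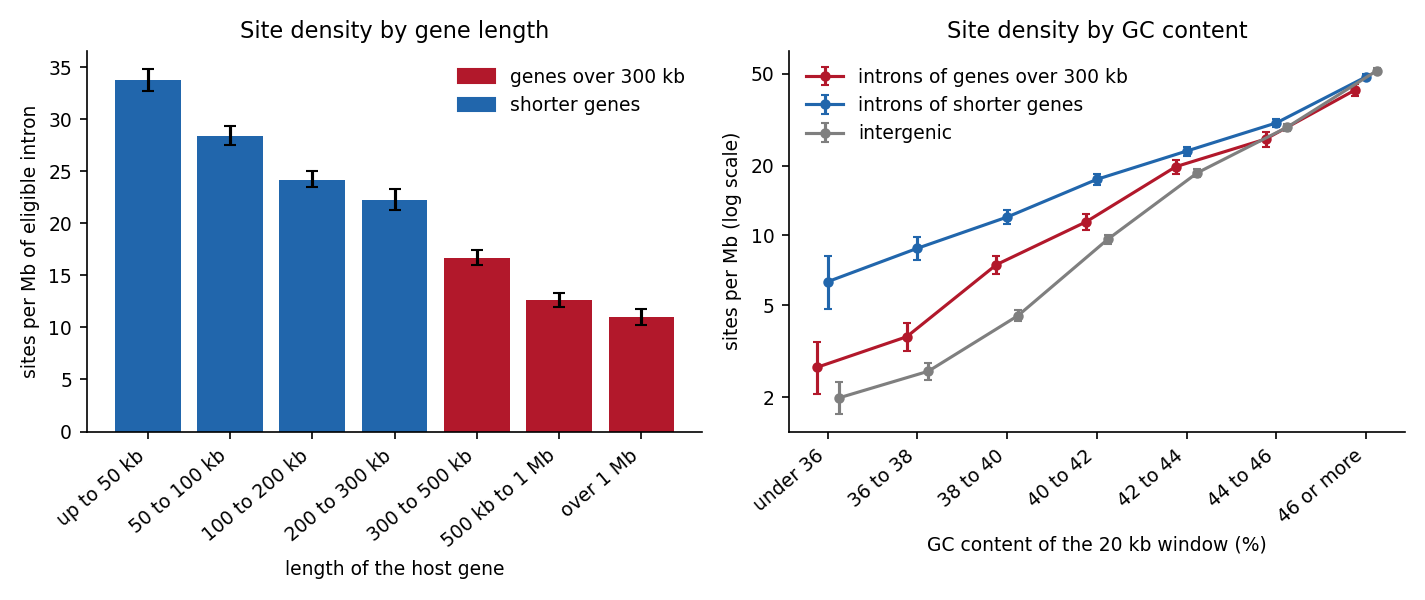
Sites per Mb of eligible intron by length of the host gene (left; bars start at 0) and by GC content of the surrounding 20 kb window (right; log axis), with 95% Poisson intervals. Density falls from 33.8 to 10.96 per Mb with gene length, and long-gene introns lie below shorter-gene introns in every GC class.

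The number of motif letters in the sequence was compared with the number of sites. Matches to the motif above the threshold of the site scan occurred 43.9 times per Mb in eligible introns of long genes, 86.5 times in those of shorter genes and 51.4 times between genes. Of the 12891 matches in long genes, 2606 lay within 50 bp of a summit, which is 20.2% (19.5 to 20.9), against 21.7% (21.3 to 22.05) and 18.3% (18.0 to 18.6). Outside soft-masked repeats, the shares were 26.6% (25.6 to 27.6) in long genes, 34.5% (33.8 to 35.2) in shorter genes and 31.3% (30.8 to 31.9) between genes. For the 788 best matches in long genes, at the stricter threshold that 0.1% of shifted windows pass, 80.8% (77.9 to 83.4) had a summit, against 84.3% (82.8 to 85.6) in shorter genes and 78.2% (76.8 to 79.5) between genes. Of the best matches outside repeats 91.6% (88.8 to 93.7) had a summit, against 94.5% (93.3 to 95.5) and 88.5% (87.2 to 89.7). Each of these shares was highest in shorter genes, though the intervals of long and shorter genes overlapped at the stricter threshold. The order of long genes and intergenic sequence depended on repeats and threshold. Matches outside repeats numbered 24.6 in long genes, 37.1 in shorter genes and 22.4 between genes per Mb of all eligible sequence, repeats included. The repeat share of that sequence differed, at 28.9%, 29.3% and 40.5%, so these are not densities of the repeat-free part. A match is a description of letters, not of binding.

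Densities differed widely from gene to gene. The median gene held 5 sites. No site was found in 31 genes, 41 held 1, 74 held 2, 186 held 5 to 9, 138 held 10 or more and 21 held 20 or more. The density per gene ran from 5.69 sites per Mb at the lower quartile to 11.4 at the median and 21.2 at the upper quartile. The Poisson interval lay wholly below the pooled density in 98 genes and wholly above it in 81.

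The genes with the most sites included several whose annotated bodies cover other genes. Gm20388, the longest at 4435 kb, covers 36 other protein-coding genes on its own strand and held 203 sites. Fgfr2, the receptor for FGF10 in lung branching, is annotated at 2961 kb, covers 13 and held 84 sites, at 36.5 per Mb. In all, 21 long genes cover at least 1 other gene in this way, and 389 sites lay in such genes alone. Without them, 546 genes held 3652 sites, at 13.0 per Mb.

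Among genes that cover no other, Gse1, which encodes a coiled-coil protein found with chromatin regulators, was the densest of those with 5 or more sites, with 45 sites at 146 per Mb (106 to 195). All 45 also lie in the body of Gm20388. Fry, which encodes a microtubule-binding protein, held 30 sites at 95.3 per Mb (64.3 to 136). Prdm16, a zinc finger transcription factor of brown fat, held 19 at 68.7 per Mb, and Tiam1, an exchange factor for Rac, held 21 at 63.3. Other genes with many sites were Rora, a nuclear receptor, with 30, Nav2, a neuron navigator, and Kalrn, an exchange factor for small GTPases, with 28 each, and Rbms3, an RNA-binding protein, and Ank3, the scaffold ankyrin G, with 25 each. Camta1, a calmodulin-binding transcription activator, held 44 and covers 2 other genes. The introns of these genes were GC-rich, from 42.8% in Rbms3 to 54.2% in Gse1, against 40.6% over all long genes.

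At the other end were long genes with few sites or none. Ptprd, a receptor tyrosine phosphatase of synapses, is 2271 kb long and held 7 sites, at 3.24 per Mb (1.30 to 6.67). Dmd, at 2257 kb, held 7 as well, at 3.21 per Mb (1.29 to 6.61). Cntnap2, which clusters potassium channels along axons, is 2245 kb long and held 9, at 4.50 per Mb (2.06 to 8.54). The 5 longest genes with none were Grik2, a kainate receptor subunit, at 694 kb, Nkain3 at 660 kb, Fstl5 at 636 kb, Pcdh11x, a protocadherin, at 620 kb, and Zfp804b at 576 kb. For each of these a count of 0 allows a density of up to about 6 to 7 sites per Mb by its upper Poisson limit, from 5.87 in Nkain3 to 7.16 in Zfp804b. Their introns were between 34.5% and 38.1% GC.

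**Figure D2:**
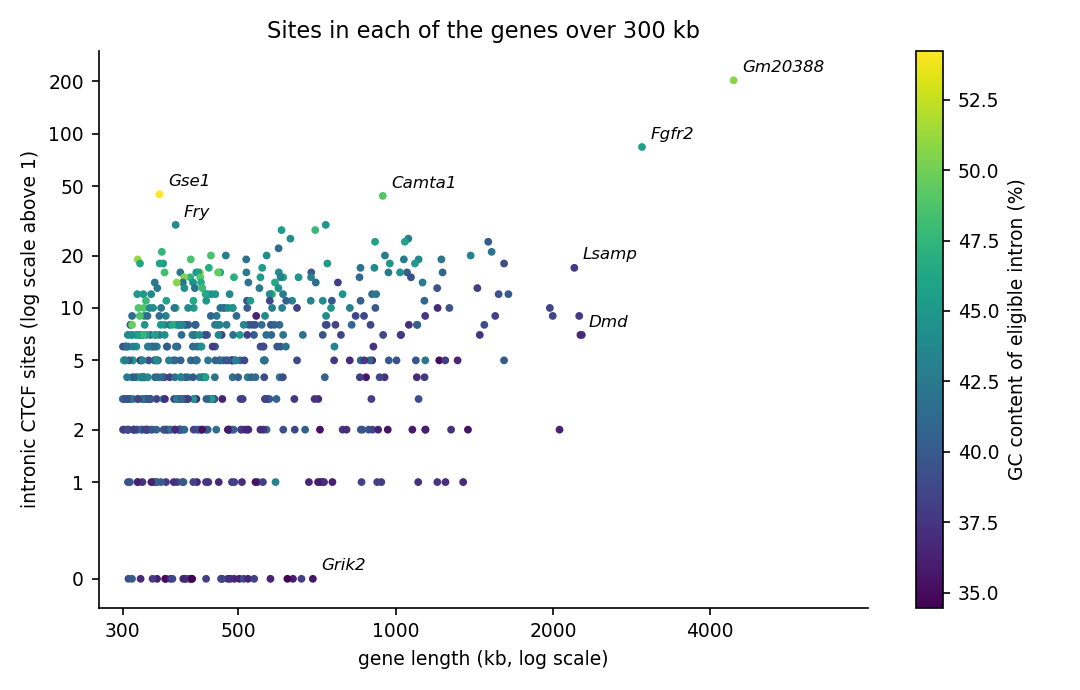
Number of intronic CTCF sites in each of the 567 genes over 300 kb (log axis above 1) against gene length (log axis), coloured by the GC content of the eligible intron. Gm20388 (203) and Fgfr2 (84) hold the most, Gse1 (45) has many in a short body, and Grik2 is the longest of the 31 genes with none.

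Functional groups of long genes differed in the same way. The figures are counts and densities beside the 13.8 per Mb over all long genes, and no group was tested. The 38 long genes of neuronal cell adhesion held 270 sites at 7.64 per Mb (6.76 to 8.61) in sequence of 38.9% GC. The most sites per gene among them were in Nrxn3, a neurexin, with 18 at 11.6 per Mb, Sdk1, a sidekick adhesion protein, with 18 at 20.3, and Tenm4, a teneurin, with 18 at 28.8, while Cntn6, a contactin, held none. The 17 genes of neurotransmitter receptors held 62 sites at 6.63 per Mb (5.09 to 8.50), with 13 in Grik4, 8 in the NMDA receptor gene Grin2b and none in Grik2.

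The 15 genes of axon guidance held 62 sites at 8.23 per Mb, among them Slit3, a secreted guidance cue, with 14, its receptor Robo1 with 8 and Sema6d with 7. The ephrin receptor Epha5 held none. The 11 cadherins and protocadherins held 78 at 10.1 per Mb, of which Cdh13 held 24, Cdh4 16 and Cdh23 15. The 28 ion channel genes and partners were near the pooled value, at 13.4 per Mb (11.5 to 15.6). Dpp6, a partner of potassium channels, held 17, the calcium channel gene Cacna1c 15 and the calcium release channel gene Itpr2 13, and Kcnh7 held none.

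The dystrophin and sarcoglycan complex was the sparsest of the groups listed. Its 7 long genes held 27 sites at 4.05 per Mb (2.67 to 5.90), in sequence of 37.7% GC. Of these 27 sites, 25 carried the motif, which is 92.6% (76.6 to 97.9). Besides Dmd, Sgcd, a sarcoglycan, held 5 and Utrn, the dystrophin homologue utrophin, held 5, and all of these 10 carried the motif. The 24 long genes of common fragile sites held 244 sites at 9.75 per Mb (8.57 to 11.1). Rora held 30 of them, and Wwox, an oxidoreductase and tumour suppressor, and Pde4d, a cAMP phosphodiesterase, held 24 each. The groups overlap: Rora also counts among the transcription factors, and Pde4d among the scaffold and cyclic nucleotide signalling genes.

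Transcription factor genes were the densest of the groups listed. Their 35 long members held 322 sites at 20.9 per Mb (18.6 to 23.3), in sequence of 41.98% GC. The sites there were weaker, with a median signal of 37.9 against 54.3 over all long genes, and 155 of them carried the motif, which is 48.1% (42.7 to 53.6), beside 62.9% over all long-gene sites. Mecom, which encodes the zinc finger factor EVI1, held 22 sites with a median signal of 28.1, of which 5 carried the motif. Rora held 30 with 20 motifs, and Sox5 20 with 11.

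The 22 genes of signalling in lung development held 219 sites at 15.5 per Mb (13.5 to 17.7), of which Fgfr2 with its wide annotation supplied 84. Without Fgfr2 the group held 11.4 per Mb (9.54 to 13.5). That interval holds the 13.0 per Mb of all long genes that cover no other gene. Other genes with many sites in the group were the glypican gene Gpc6 and Ltbp1, a carrier of latent TGF-beta, with 16 each. Ndst4, an enzyme of heparan sulfate synthesis, held none. The 34 scaffold and cyclic nucleotide signalling genes held 338 at 17.0 per Mb (15.3 to 18.9). Ank3 held 25 of these, Pde4d 24 and the active-zone scaffold Erc2 17, and Prkd1, which encodes protein kinase D1, held none. The 7 genes of RNA-binding proteins held 81 at 15.7 per Mb (12.4 to 19.5), an interval that holds the pooled value, among them 21 in the splicing factor gene Rbfox1 and 16 in Rbfox3.

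Across chromosomes, long genes on X were the sparsest. Their 26 genes held 66 sites at 4.45 per Mb (3.44 to 5.66), and shorter genes on X held 13.2. The autosomes lay between 8.64 per Mb on chromosome 15 and 21.2 on chromosome 8, which holds Gm20388. Embryos of both sexes had been pooled, so X was present in fewer copies than the autosomes, and the part of copy number in the lower density was not tested.

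Both density and motif strand varied with position in the gene. Each gene was cut into 10 equal bins from its TSS end. In bins 1 to 9 the density lay between 11.96 and 14.7 sites per Mb, and in bin 10, at the 3' end, it was 19.5 (17.9 to 21.2). The density of bin 10 was 1.47 times that of the rest (95% interval 1.34 to 1.61). Sites in bin 10 also had a higher median signal, 70.4, than those of bins 1 to 9, which lay between 48.0 and 57.3.

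Over the whole gene, the strands were nearly equal in number. Of 2543 motif-bearing sites, 1228 pointed along the gene (sense) and 1315 against it (antisense), which is 48.3% sense (46.4 to 50.2). That interval holds 50%, but it lay wholly below 50% with either replicate list alone, at 47.5% (45.6 to 49.5) and 47.95% (46.004 to 49.9), so whether antisense motifs were in slight excess depended on the list. The ends of the gene differed from each other by more. In bin 1, 141 of 234 motifs were sense, 60.3% (53.9 to 66.3). In bin 10, 143 of 371 were sense, 38.5% (33.7 to 43.6). Motifs near either end of a long gene therefore more often pointed toward its interior. On the TSS side of the gene's midpoint, 54.3% of 1233 motifs were sense (51.5 to 57.1), and on the far side 43.3% of 1343 (40.6 to 45.9), a difference of 11.1 percentage points (95% Newcombe interval 7.22 to 14.9). The difference was 13.9 points (10.8 to 17.1) in genes over 200 kb and 7.65 (2.35 to 12.9) in those over 500 kb. It was thus not larger in the longest genes, and no value is given for shorter genes alone. A site in overlapping long genes counts once in each of them here.

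The same order appeared in each replicate list taken alone. From replicate 1 the shares were 60.3% sense in bin 1 and 37.0% in bin 10, and from replicate 2 they were 58.4% and 37.2%. Among genes that cover no other gene they were 61.3% (54.4 to 67.7) and 37.3% (32.4 to 42.5). The outermost motif of each gene did not show the trend: in 429 genes with 2 or more motif-bearing sites, the one nearest the TSS was sense in 47.8% (43.1 to 52.5), and the one nearest the gene's end in 47.6% (42.9 to 52.3).

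**Figure D3:**
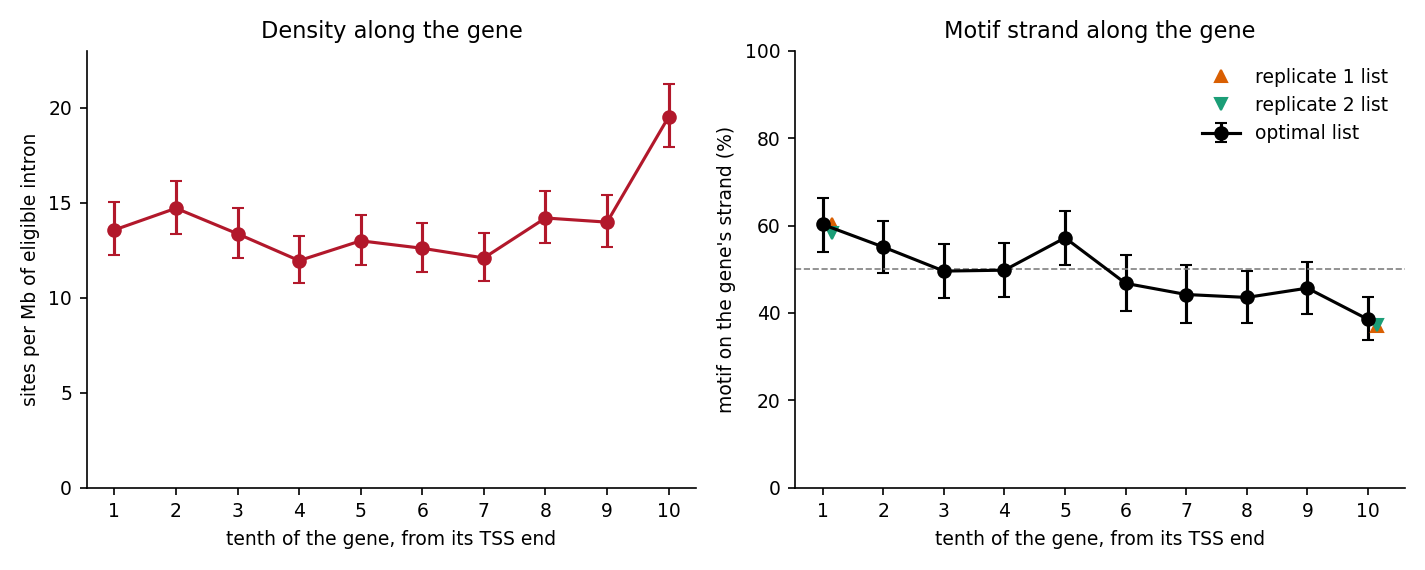
Density of sites (left) and share of motifs on the gene's strand (right) in 10 equal bins from the TSS end to the 3' end, with 95% Poisson and Wilson intervals; triangles give the replicate lists in bins 1 and 10. Density rises to 19.5 per Mb in bin 10, and the sense share goes from 60.3% in bin 1 to 38.5% in bin 10, with both replicate lists beside it.

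Sites within a gene were widely spaced. The 3511 pairs of neighbouring sites lay a median of 25.3 kb apart, with quartiles of 8.26 and 67.9 kb. The 15316 intergenic sites gave 9421 pairs of neighbours, with a median of 13.9 kb and quartiles of 3.99 and 47.8 kb. These distances were not adjusted for the length of the gene bodies or of the stretches between genes. Pairs closer than 1 kb made up 3.70% in long genes and 6.42% between genes, and pairs closer than 10 kb 28.8% and 43.0%. The closest sites lay 200 bp apart, as in Gm20388, where the peaks of such a pair overlapped and had signals of 18.1 and 5.86. Whether such pairs are 1 binding site called as separate peaks was not tested. With sites within 500 bp of a stronger one counted once, the median spacing was 26.1 kb. At the other end, 19 pairs were more than 500 kb apart. The widest gap was 1062 kb, in Cntnap2.

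The orientation of neighbouring motifs varied with their distance at the motif threshold used. Of 439 motif-bearing pairs under 10 kb apart, 16.6% (13.4 to 20.4) were convergent and 25.97% (22.1 to 30.3) divergent. At 10 to 100 kb, the shares of 1100 pairs were 22.4% and 25.4%. Over 100 kb, 31.7% (27.8 to 35.9) of 501 pairs were convergent and 16.6% (13.6 to 20.1) divergent, a difference of 15.2 percentage points (9.91 to 20.3). At the stricter motif threshold the difference was 4.20 points (-5.58 to 13.9) and was no longer called. Tandem pairs, with both motifs on the same strand, made up between 51.7% and 57.4% in these classes. The shares over 100 kb in long genes lay beside those of neighbouring motif-bearing sites over the whole genome, of which 32.5% (31.3 to 33.7) of 6069 were convergent and 17.4% divergent.

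**Figure D4:**
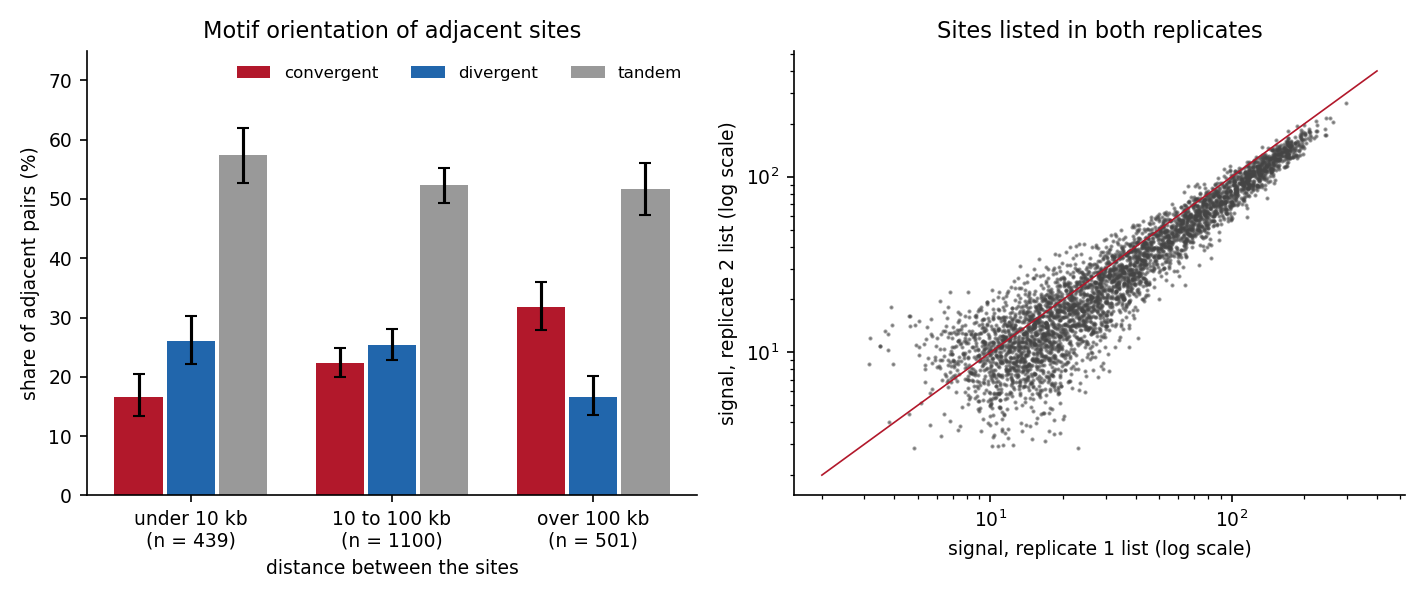
Shares of convergent, divergent and tandem pairs among neighbouring motif-bearing sites of 1 gene by distance, with 95% Wilson intervals (left), and the signal of each site in the replicate lists (right; log axes; the line marks equal values). Convergent pairs go from 16.6% under 10 kb to 31.7% over 100 kb, and most points lie below the line of equal values.

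The signal of a site was the peak caller's own value. It ran from 5.41 to 559.1 with a median of 54.3 and quartiles of 28.8 and 125. Ranked within the optimal list, the median percentile was 45.6 (44.3 to 46.9), against 49.2 (48.5 to 50.1) for introns of shorter genes and 53.9 (53.0 to 54.7) between genes. By gene length, the median signal was 69.5 in genes of up to 50 kb and 55.8 in those of 200 to 300 kb. It was 54.0 at 300 to 500 kb, 52.9 at 500 kb to 1 Mb and 57.5 over 1 Mb. Of the 4041 sites, 558 were among the strongest 10000 of the 54953 optimal peaks, which is 13.8%. The share was 17.7% in introns of shorter genes and 20.5% between genes. The difference from introns of shorter genes was -3.90 percentage points (-5.12 to -2.63), and from intergenic sites -6.71 (-7.92 to -5.44).

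The replicates ranked the sites alike. The optimal list was itself thresholded for reproducibility, so presence in both replicates and a like ranking were favoured by the choice of sites. Of the 4041 sites, 4012 were listed in replicate 1, 3996 in replicate 2 and 3972 in both. The median signal was 30.01 in replicate 1 and 24.7 in replicate 2. These lists were not scaled to each other, and the median ratio was 1.21. Spearman's rho between the replicates was 0.93 over the 3972 sites listed in both, which share a control file and a list threshold. Among the strongest peaks of both replicates were 3292 sites, which is 81.5%, beside 82.6% of all sites.

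The strongest site lay in Iqsec1 and had a signal of 559.1 in the optimal list, 298.7 in replicate 1 and 263.3 in replicate 2. It ranked 7 among all optimal peaks. The site in Palld had 469.4, with 255.1 and 217.0 in the replicates. The site shared by Gse1 and Gm20388 had 465.2, with 262.8 and 204.3, and the one in Lsamp 420.3, with 224.9 and 197.7. In each of these, replicate 1 had the larger unscaled value, as in the median site.

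The motif was found within 50 bp of the summit at 2543 of 4041 sites, 62.9% (61.4 to 64.4), where 61.7% of all sites in the genome carried it. The share was 66.9% (66.1 to 67.7) in shorter genes, a difference of -3.99 percentage points for the long genes (-5.69 to -2.31), and 68.8% (68.1 to 69.6) between genes, a difference of -5.91 (-7.58 to -4.26). The lower share did not begin at 300 kb. In shorter genes it fell from 70.98% (69.5 to 72.4) up to 50 kb to 62.9% (60.8 to 65.1) at 200 to 300 kb. It was 62.3% at 300 to 500 kb, 63.3% at 500 kb to 1 Mb and 63.9% over 1 Mb. The difference from shorter genes was not called among the strongest 10000 peaks, at -2.52 (-5.74 to 0.281), or at the stricter threshold, at -1.18 (-2.45 to 0.129). Signal moved with the motif: the median was 75.7 with it and 34.6 without. Among sites in the lowest 20% of signal, 39.1% (35.96 to 42.3) of long-gene sites and 40.9% (39.1 to 42.8) of shorter-gene sites had the motif, and in the highest 20% 86.8% (83.9 to 89.2) and 89.3% (88.0 to 90.4). The long-gene share was the lower in each of the 5 signal classes. The intervals overlapped in each, but no interval of the difference was computed within the classes, so overlap decides nothing here. Between percentiles 40 and 60 the shares were 63.7% (60.4 to 66.8) and 68.3% (66.5 to 69.98).

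Repeats held 800 of the summits, 19.8% (18.6 to 21.1), beside 19.6% of all sites. The share was 24.8% in shorter genes, a difference of -4.99 percentage points for the long genes (-6.40 to -3.54), although the eligible sequence of both classes was soft-masked to a like extent, 28.9% and 29.3%. Among shorter genes it fell from 26.8% in those of up to 50 kb to 21.6% in those of 200 to 300 kb. Between genes it was 20.3%, a difference of -0.502 (-1.86 to 0.904), in sequence that was 40.5% soft-masked.

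Individual giant genes were filled very differently. In mm10, Dmd lies at chrX:82948870-85206141 on the plus strand, Cntnap2 at chr6:45059357-47304213 on the plus strand, Ptprd at chr4:75941238-78211961 on the minus strand, Lsamp at chr16:39984361-42181679 on the plus strand and Gse1 at chr8:120228456-120581390 on the plus strand. In Dmd the 7 sites, whose motifs are printed above, had signals of 64.1, 21.3, 48.7, 166, 57.9, 21.4 and 24.5 in order from the TSS. In replicate 1 they were 36.6, 12.9, 26.4, 98.9, 33.0, 7.21 and 13.2, and in replicate 2 26.9, 8.39, 20.7, 66.8, 24.4, 8.71 and 10.9. The highest was site 4 in both replicates, 1053 kb from the TSS. No site lay in the first 792 kb of the gene by this rule. Sites 1 to 3 and 6 were antisense, and sites 4, 5 and 7 sense.

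In Cntnap2 the sites gathered at the 3' end. Site 1 lay 745 kb from the TSS with a signal of 23.2 (11.9 and 10.18 in the replicates), and the other 8 lay between 1807 and 2235 kb. The strongest, site 3, had 252 (134 and 116 in the replicates). Of the 7 with a motif, 5 were antisense. In Ptprd the 2 strongest sites, at 653 and 693 kb, had 201 and 176 and were both sense, with replicate values of 108 and 91.6 for the first and 98.8 and 79.1 for the other. In Lsamp, 17 sites spread along 2197 kb, and its strongest, site 15, lay 2181 kb from the TSS, within the last bin of the gene. Gse1, in contrast, had 45 sites along 353 kb, and of its 23 motifs 18 were sense.

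**Figure D5:**
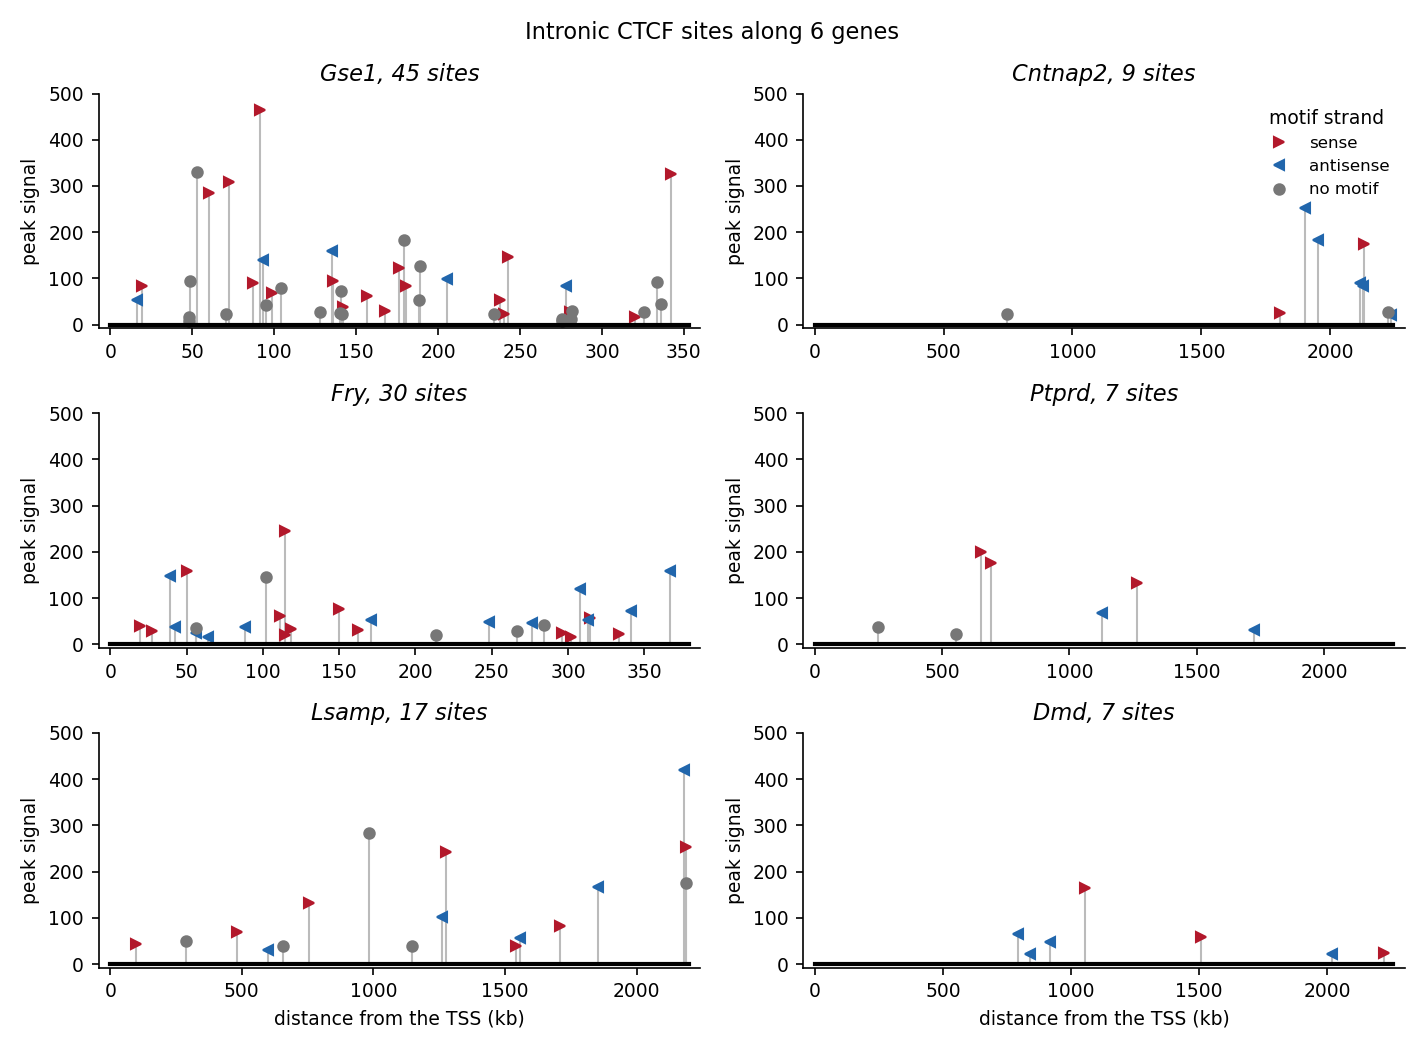
Intronic CTCF sites along 6 genes by distance from the TSS (kb, a different scale in each panel), with the peak signal in the optimal list as height and the symbol showing the motif's strand relative to the gene. Gse1 holds 45 sites along 353 kb, while Cntnap2, Ptprd and Dmd hold 9, 7 and 7 along their length.

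The rule fixes the least distance of a site from exons and starts, so the distances here are descriptions. The exon-free stretch that held a site had a median length of 44.7 kb, and 947 sites (23.4%) lay in stretches over 100 kb. The nearest exon lay a median of 8.74 kb away and the nearest TSS 46.4 kb. Long genes also had CTCF at their own promoter more often: 202 of 567 had a site within 1 kb of the TSS, 35.6% (31.8 to 39.7), against 5635 of 21188 shorter genes, 26.6% (26.005 to 27.2), a difference of 9.03 percentage points (5.15 to 13.1). Both a promoter site and an intronic site were present in 193 genes and neither in 22, and 19 genes held no site of any kind in their body.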

How the data were processed

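Peaks were used from narrowPeak lists on mm10: 1 per replicate, 1 pooled, and the optimal and conservative lists. The authors' signal for each peak is its caller's own value, and lists were not scaled to each other. For the aligner, the caller and the reproducibility filter (IDR), names, versions and thresholds are not given in the sources read. Both replicate lists derive from alignments with 1 shared control, per the deposited README.

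Genes came from GENCODE M21 and sequence from GRCm38.p6. Eligible sequence left out exons of any gene, 5 kb around every TSS and unknown bases. A motif matrix 20 bases wide was learned from the 3000 strongest odd-autosome sites outside long genes, in 15 rounds, and called where its score passed the level that 1% of windows shifted by 1 kb pass. Spread was given by 95% Wilson, Newcombe, exact Poisson and order-statistic intervals, and no p-value was computed. The scan and the intervals were tested on simulated data. The lists of genes and the members were chosen with earlier results of these data known. Genes were named by rule: the 10 with most sites, the 5 densest with at least 5, the 5 longest, the 5 longest with none, those of the 10 strongest sites, and per list the 3 with most sites and the longest with none. A gene so named is not reported here. Alternatives covered the list used, each replicate alone, motif threshold and window, pair distance, gene length, TSS distance, merging of close sites and covering gene bodies. The last of these, the comparisons by bin and by pair distance over 100 kb, the GC windows and the count of motif matches were added once the data had been seen. Software was scipy 1.17.1, numpy 2.4.6, numba 0.67.0, matplotlib 3.10.9 and pandas 2.3.3 under Python 3.11.15.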

Additional observations from a re-analysis of the deposited data

How the results depend on the processing

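With each replicate list taken alone, the recomputed results kept their direction and, except for the sense share over the whole gene, their side of the threshold; presence in both replicates has no value there. The sense share, 48.3% with an interval that holds 50%, was 47.5% and 47.95% with replicate 2 and replicate 1 alone, 47.97% with the conservative list, 48.02% with the strongest pooled peaks, 48.1% in genes over 200 kb and 47.7% over 20 kb from a TSS, and these 6 intervals lay below 50%; the cause was not tested. No paired analysis was possible because there is 1 group. The lower density in long than in shorter genes, the sense difference between the sides of the gene's midpoint and the denser last bin kept their direction and their call under every alternative run for them. The sense difference was smallest in genes over 500 kb, at 7.65 points (2.35 to 12.9).

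With the conservative list, density was 13.3 per Mb and the share among the strongest peaks of both replicates 86.7%. With the strongest pooled peaks that share was 83.5%, and with summits matched within 50 bp 79.9%. Keeping the strongest 10000 optimal peaks lowers the count and density and raises the percentile by construction. It left 558 sites in 280 genes at 1.90 per Mb, with a median percentile of 89.7 and a median spacing of 64.1 kb. Of these sites 87.5% had a motif, 4.66% lay in repeats and 100% were among the strongest peaks of both replicates. Of their pairs 19.3% were convergent. The motif deficit against shorter genes was then -2.52 points (-5.74 to 0.281), so its interval held 0. At the stricter motif threshold, 15.7% of sites had a motif, the deficit was -1.18 points (-2.45 to 0.129), 20.4% of pairs were convergent, and the excess of convergent over divergent pairs over 100 kb was 4.20 points (-5.58 to 13.9), so both calls were lost; the cause was not tested. With the motif sought within 100 bp, 50.4% of sites had one, at a threshold set anew so that 1% of the wider shifted windows pass. Pairs 20 to 500 kb apart were convergent in 26.1%.

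Genes over 200 kb gave 15.7 sites per Mb, 931 genes with a site and a spacing of 22.5 kb. Genes over 500 kb gave 2143 sites in 221 genes at 11.9 per Mb and a spacing of 28.8 kb. Density was 13.0 per Mb over 20 kb from a TSS and 13.0 without genes that cover another. Read depth is unknown, so a gene with no site may hold sites below the list's threshold.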
